A study of Homo sapiens with 4 samples.

Results

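The 10 genes described here encode subunits of the BAF and PBAF chromatin remodeling complexes: ARID1A, ARID1B, ARID2, PBRM1, SMARCA2, SMARCA4, SMARCC1, SMARCE1, BRD7 and BRD9. N6-methyladenosine (m6A) is an RNA base made by adding a methyl group to adenosine. An m6A region was given to a gene when the deposited annotation placed its centre in a transcript of that gene, when the annotation named the gene as the nearest one, or when the region overlapped the gene body on hg38. By this rule the 10 genes held 23 of the 9900 deposited regions. The genes had been picked for this description with their regions known, so the counts below describe them and are not tested. The cells were human embryonic stem cells of the established line H1, and all libraries were of the wild-type genotype (WT). The name of the deposited region set gives the cells as primed. There were 2 libraries of RNA recovered with an m6A antibody (Cell Signaling Technology) and 2 input libraries, all from total RNA. The files gave 1 intersected set of MACS2 peaks with start and end positions and no value per library, so there was no replicate error, the depth of the libraries was unknown, and the absence of a region does not show that a transcript lacks m6A.

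BAF complexes, the mammalian SWI/SNF remodelers, use the energy of ATP to slide or evict nucleosomes and so open enhancers and promoters. They exist in 3 main forms that share an ATPase, either SMARCA4 or SMARCA2. Canonical BAF contains ARID1A or ARID1B, PBAF contains ARID2, PBRM1, BRD7 and PHF10, and non-canonical BAF contains BRD9 with BICRA or BICRAL. In mouse embryonic stem cells a form built on Smarca4, Arid1a and Smarcc1 is known to be needed for self-renewal and pluripotency. In mRNA, m6A is best known from long internal exons and from the neighbourhood of stop codons, where it can change the stability and translation of the transcript.

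Each of the 3 ARID genes carried a region centred in a coding exon, and ARID1B and ARID2 also had intron-centred ones, while SMARCA2, SMARCA4 and SMARCC1 had no region centred in an exon. The widest of the 23 regions were centred in introns of SMARCC1 and SMARCA2. The annotation labels the centre of a region alone, and the intron and exon numbers below are those of the centre. A wide region centred in an intron may therefore also cover exons, which was not measured. Of the 23 regions, 15 were centred in introns, 4 in coding exons and 1 each in a non-coding exon, a promoter, a transcript end and intergenic sequence. Introns thus took 65.2% of the regions of these genes and 50.1% of the other 9877 regions, and coding exons 17.4% and 19.3%. All 10 genes held a region by the rule, and all 10 had one over the gene body. Among all 20056 protein-coding genes, 36% held a region by the same rule and 30.2% had one over the gene body. The 10 genes are long, from 22857 bp for SMARCE1 to 434754 bp for ARID1B, and among the 9938 protein-coding genes within these lengths the shares were 44.5% and 39.6%. An exonic region was one whose centre the annotation put in any exon of the gene, whether coding, untranslated or non-coding. Exonic regions were held by ARID1A, ARID1B and ARID2, 3 of the 10 genes, against 12.9% of all protein-coding genes and 15.6% of those within the same lengths. Since the genes were picked for holding regions, nothing is read from these shares.

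**Figure D1:**
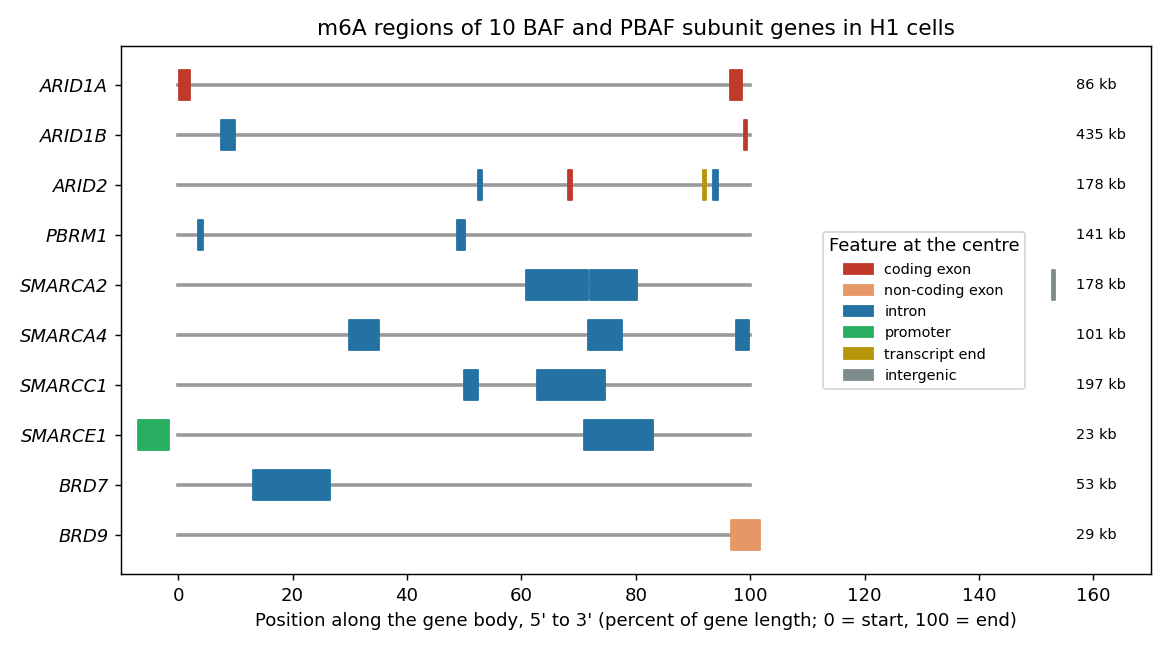
Each row is 1 gene, drawn from its start (0 on the x axis) to its end (100) as a percent of gene length, with the gene length in kb at the right. Coloured blocks are m6A regions, coloured by the feature at their centre and drawn at least 0.6% wide. Red blocks, centred in coding exons, appear in ARID1A, ARID1B and ARID2, and the wide blue ones, centred in introns, lie in SMARCA2, SMARCC1, SMARCA4, BRD7 and SMARCE1.

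ARID1A, the DNA-binding ARID subunit of canonical BAF and the subunit gene most often mutated in human cancers, held exonic regions near both of its ends. The gene lies on the forward strand at chr1:26696015-26782104. Its first region, chr1:26696105-26697736, was 1632 bp wide, began 90 bp downstream of the gene start and was centred in exon 1 of 20. Its last, chr1:26779079-26780840, was 1762 bp wide, was centred in exon 20 of 20 and ended 1264 bp before the 3' end of the gene. Together they covered 3394 bp, or 3.94% of the gene body, and no region was centred in an ARID1A intron. The first of them also reached into LOC124900417, a protein-coding gene model that overlaps the ARID1A start. The nearest start site to the last region was that of PIGV, so that naming by nearest gene alone would not have given it to ARID1A. ARID1A had the most exonic regions of the 10 genes. In all, 142 protein-coding genes, ARID1A included, held exactly 2 exonic regions and no other over the gene body. The 3 of them nearest to ARID1A in bases covered were CHST15 with 3346 bp, PCDH1 with 3452 bp and CDV3 with 3319 bp.

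ARID1B, the paralog that takes the place of ARID1A in a separate set of canonical BAF complexes, also held a region in its last exon, but none at its start. The region chr6:157206187-157208411 was 2225 bp wide, was annotated to exon 20 of 20 and ended 2368 bp before the 3' end of the gene, which is on the forward strand. The other ARID1B regions formed a pair in intron 1 of 19. They were 6341 bp wide at chr6:156808843-156815183 and 3164 bp wide at chr6:156816140-156819303, with a gap of 956 bp between them. Their centres lay in a MIRb and an L1MC4 repeat, both remnants of old transposable elements. The annotation gave these regions to the neighbouring names MIR4466 and TMEM242, and the transcripts it listed were not matched in the RefSeq gene table, so all 3 were placed in ARID1B by position.

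ARID2, the ARID subunit of PBAF, held the most regions of the 10 genes, with 4. The one in a coding exon, chr12:45851392-45852634, was 1243 bp wide and was centred in exon 15 of 20, an internal exon 68.6% of the way along the gene. It therefore differed in place from the last-exon regions of ARID1A and ARID1B. A region of 709 bp, the narrowest of the 23, was annotated as the end of a shorter ARID2 transcript, NM_001347839, at chr12:45893523-45894231. The remaining 2 were centred in introns, 1234 bp in intron 6 of 20 and 1604 bp in intron 20 of 20, at L1MA4 and L1MB3 repeats, which are old LINE elements. No ARID2 region exceeded 2 kb.

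PBRM1 and BRD7, bromodomain subunits of PBAF that bind acetylated histones, held only regions centred in introns. PBRM1 had 2, of 1328 bp in intron 1 of 29 at chr3:52679715-52681042 and of 2141 bp in intron 17 of 30 at chr3:52615367-52617507, the second centred at an AluY element. BRD7 had 1, of 7133 bp in intron 2 of 16 at chr16:50354905-50362037, centred at an AluJb element and covering 13.5% of the gene body. BRD9, the bromodomain subunit that marks non-canonical BAF, differed from them in holding 1 region at its 3' end. That region, chr5:863223-864714, was 1492 bp wide, of which 974 bp lay inside BRD9 and the rest up to 518 bp past its end. It was annotated to exon 17 of 17 of the non-coding transcript NR_134296, which had no match in the gene table. Its centre was also inside LOC128966726, a protein-coding gene model that overlaps the end of BRD9, so it was not counted as exonic for either gene. The deposited strand was the same for every region and does not separate the overlapping genes.

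The ATPase genes, which supply the motor of the complex, held regions centred in introns, the widest of them in SMARCA2, and none centred in an exon. SMARCA2 (also known as BRM) held regions of 19206 bp at chr9:2123763-2142968 and 14640 bp at chr9:2143725-2158364, separated by 756 bp and both annotated to intron 27 of 32. Together they covered 33846 bp, or 19.0% of the gene body, the highest share of the 10 genes. A further region named for SMARCA2, of 957 bp at an LTR1B element, was intergenic and began 94147 bp beyond the gene, so only the naming by nearest start site ties it to SMARCA2. SMARCA4 (also known as BRG1) held regions of 5365 bp in intron 7 of 32 and 6076 bp in intron 29 of 34, at chr19:10991228-10996592 and chr19:11033483-11039558. Its last region, chr19:11059857-11062028, was 2172 bp wide and ended 245 bp before the 3' end of the gene, although its centre was labelled intron 32 of 32 of transcript NM_001128845. The 3 SMARCA4 regions covered 13.4% of the gene body. They were wider than 74.6, 76.9 and 51.2% of the intron-centred regions outside the 10 genes, in order of position. The SMARCA2 pair was wider than 93.1 and 90.1% of them.

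The second SMARCA2 region contained 1 annotated inner start site of SMARCA2 and ended just upstream of another. RefSeq lists 4 SMARCA2 promoter windows in GRCh38.p14, each from 250 bases before to 50 after a start site. The second region held all of the window of the start site at position 2157662 and, of the window of the start site at 2158464, the 151 bases farthest upstream, but not that start site itself. The windows at the gene's first start site, 2015347, and at 2021945 met no region. Of 22199 promoter windows of protein-coding genes, 1155 (5.2%) overlapped a region. Windows were listed for 8 of the 10 genes, and those of SMARCA2 alone among them met a region. The bases upstream of both sites that the region covered are printed, with those of the first start site, outside any region, and of BCL7A, a further subunit whose start lay inside a region, beside them. Capitals mark GGAC, the core of the common m6A consensus, and GTCC, its complement on the other strand. The stretches at the first SMARCA2 start and at BCL7A lie before the annotated start of the gene. They are thus outside its annotated transcripts, and capitals there mark no base of them. Those at the inner and last SMARCA2 starts lie inside the gene body.
SMARCA2 inner start, chr9:2157412-2157661, forward strand, inside the region: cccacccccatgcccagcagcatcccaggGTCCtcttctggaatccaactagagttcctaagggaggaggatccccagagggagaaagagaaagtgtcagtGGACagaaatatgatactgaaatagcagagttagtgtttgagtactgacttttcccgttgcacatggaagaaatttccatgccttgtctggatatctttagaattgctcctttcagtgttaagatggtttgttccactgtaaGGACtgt
SMARCA2 last start, covered upstream part only, chr9:2158214-2158364, forward strand: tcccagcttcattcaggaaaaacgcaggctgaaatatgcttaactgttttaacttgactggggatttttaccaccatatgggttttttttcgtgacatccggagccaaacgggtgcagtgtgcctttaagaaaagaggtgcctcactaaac
SMARCA2 first start, chr9:2015097-2015346, forward strand, outside any region: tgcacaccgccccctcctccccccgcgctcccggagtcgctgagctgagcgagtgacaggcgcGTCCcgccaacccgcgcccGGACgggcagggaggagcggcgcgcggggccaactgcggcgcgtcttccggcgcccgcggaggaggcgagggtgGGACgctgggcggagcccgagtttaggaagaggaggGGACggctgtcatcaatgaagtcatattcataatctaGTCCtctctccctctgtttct
BCL7A start, chr12:122021634-122021883, forward strand, inside a region: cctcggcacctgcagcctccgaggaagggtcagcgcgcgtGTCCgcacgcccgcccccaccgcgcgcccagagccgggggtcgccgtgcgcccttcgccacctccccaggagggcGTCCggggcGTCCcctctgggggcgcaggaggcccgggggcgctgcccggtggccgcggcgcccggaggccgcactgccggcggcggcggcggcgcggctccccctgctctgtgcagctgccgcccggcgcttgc

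The stretches covered by regions ranged widely in base content. G and C made up 46.0% of the 250 bases before the inner SMARCA2 start and 43.7% of the 151 covered bases of the last start, against 68.8% of the 250 bases at the first SMARCA2 start, which no region met. At the covered BCL7A start they made up 82.4%, and at 2 covered start windows of BCL11A, also a further subunit, 51.2 and 58.4%. The median over the 250 upstream bases of all protein-coding windows was 62.0%, with quartiles of 52.0 and 70.4%, and over the first 151 of those bases it was 60.3%. The inner start had 2 GGAC and 1 GTCC, the last start had neither, the first start had 3 GGAC and 2 GTCC, and the BCL7A start had GTCC only, 3 times. Of the 2 covered BCL11A windows, the one with 51.2% G and C had neither, and the other had 1 GGAC and no GTCC. GGAC or GTCC was found in 85.1% of all 250-base upstream windows and in 69.9% of their first 151 bases, so these letters are common and a match is no site. Which base within a region carried m6A was not given by the files.

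SMARCC1, a scaffold of the complex core, held the widest region of the 23. It measured 23422 bp, at chr3:47635291-47658712, and was centred in intron 21 of 27. It was wider than 94.6% of the 4952 regions centred in introns outside the 10 genes. A second one of 4780 bp was centred in intron 14 of 27 at chr3:47678775-47683554. Together they covered 28202 bp, or 14.3% of the gene body. Both were nearest to the start of SNORD146, a small nucleolar RNA gene, and neither overlapped a gene other than SMARCC1. SMARCE1, the HMG-box subunit of canonical BAF and PBAF, held a region of 2756 bp at chr17:40628852-40631607, in its last intron, 10 of 10, and 3890 bp from the 3' end. A further 1217 bp at chr17:40648197-40649413, upstream of the gene and wholly outside the gene body, were labelled as the SMARCE1 promoter, with the centre 987 bp before the start site. It overlapped no other gene of the RefSeq table.

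Regions centred in introns had a higher median width in the BAF and PBAF genes than in the set as a whole, with a broad overlap, and the further BAF subunits had a higher one still. Their median width was 4780 bp in these genes (n = 15, quartiles 2156.5 and 6737 bp) and 2092.5 bp in all others (n = 4952, quartiles 1192 and 5507 bp). Of the 15, 7 exceeded 5 kb (46.7%), against 26.6% of the others. Among 3478 intron-centred regions in other protein-coding genes of the same range of lengths, the median was 2418.5 bp and 31.0% exceeded 5 kb. In 21 further BAF subunit genes the median was 7052 bp (n = 5) and 80.0% exceeded 5 kb, but all 5 regions came from ACTL6A, SS18 and BCL11A. The share over 5 kb was 41.7% in the CHD remodelers and 37.8% in the ISWI and INO80 remodelers described at the end. The widest were those of SMARCC1 and SMARCA2, and the narrowest, of 1234 to 1604 bp, were those of ARID2 and PBRM1. The 5 regions centred in coding or non-coding exons measured 1243 to 2225 bp, with a median of 1632 bp against 1293 bp in 3056 others. No test was made of these widths, since the genes were chosen with their regions in view.

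**Figure D2:**
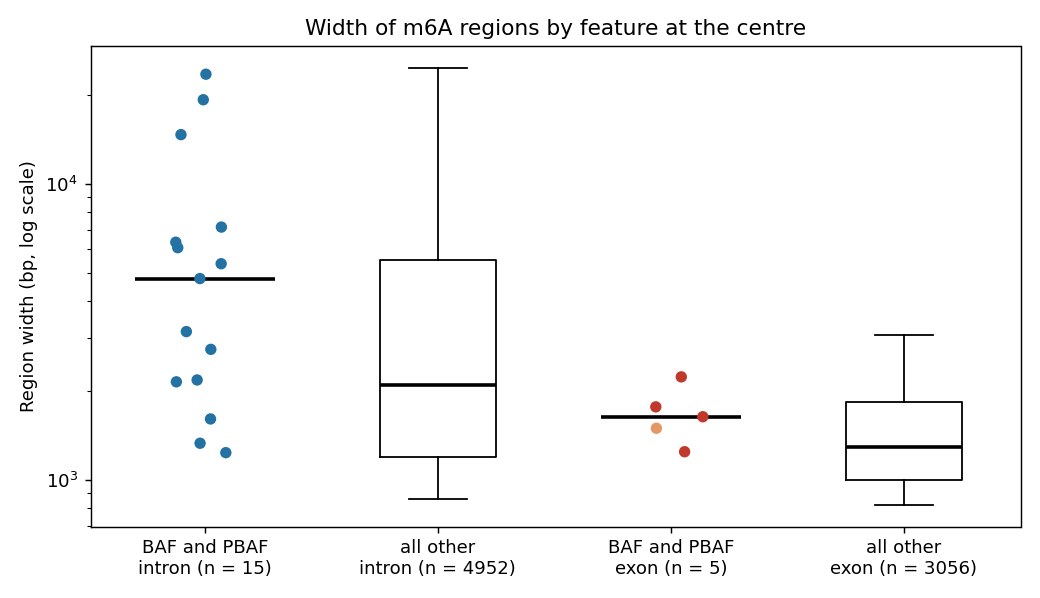
The y axis gives region width in bp on a log scale. Points are the regions of the 10 BAF and PBAF genes with their median as a bar, and boxes show all other regions with median, quartiles and the 5th to 95th percentile. The 15 intron-centred regions had a median of 4780 bp, inside the quartiles of the others, and the 5 exon-centred ones lay between 1243 and 2225 bp.

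Some intron centres in these genes, 5 of 15, fell in Alu elements, the most abundant short repeats of the human genome. Of the 15, 10 were in a repeat of some kind (66.7%), against 54.7% of other intron centres. Alu elements held 5 of them (33.3%), 1 each in PBRM1, SMARCA2 and BRD7 and 2 in SMARCA4, against 12.2% of the others. LINE elements held 3 (20.0%), in ARID1B and ARID2, against 31.7%. All 5 Alu-centred regions were over 2 kb wide, and among regions of that width Alu elements held 5 of 12 centres (41.7%) in these genes and 17.4% of the others. The Alu content of the genes themselves was not measured here, and gene length was not held fixed. As the genes were picked with their regions known, nothing is read from these shares.

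A region near the 3' end of the gene was seen in both canonical ARID genes, 1 ATPase gene, 1 core gene and BRD9. ARID1A, ARID1B, SMARCA4, SMARCE1 and BRD9, 5 of 10, had a region that ended within 5 kb of the annotated 3' end or ran past it. The distance was 245 bp in SMARCA4, 1264 bp in ARID1A, 2368 bp in ARID1B and 3890 bp in SMARCE1, and the BRD9 region ran past the end. Of 8507 protein-coding genes within the same range of lengths and of known strand, 16.6% had such a region. So did 4 of 19 further BAF subunits of known strand (21.1%), 4 of 8 CHD genes of known strand (50.0%) and 6 of 18 genes of the ISWI and INO80 group (33.3%). Strand was taken in part from a gene's own regions, so genes without a region could drop out, which can raise these shares and the 16.6%. SMARCC2, ACTB and CHD5 dropped out, and none of them held a region. The counts were thus still 4 over all 21 further subunits and 4 over all 9 CHD genes. The nearest region in ARID2 stopped 9902 bp short of the 3' end, and those of SMARCA2, BRD7, SMARCC1 and PBRM1 stopped between 35256 and 70000 bp short. The 5 kb limit was chosen after the positions were seen. The 10 genes had also been picked for holding regions. All 10 had one over the gene body, against 39.6% of protein-coding genes within these lengths. Nothing is therefore read from 5 of 10 beside 16.6%.

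Among the remaining subunits, exonic regions lay in the BCL7, BICRA and BCL11 families. Of 21 further subunit genes, 5 held an exonic region (23.8%, 95% exact binomial interval 8.22 to 47.2%) and 8 a region over the gene body (38.1%, 18.1 to 61.6%). Both intervals include the shares over all protein-coding genes given above, and they cover counting error only. BICRA, which defines non-canonical BAF, held 2 exonic regions, of 1147 bp in exon 6 of 15 and 871 bp in exon 15 of 15. Its paralog BICRAL held 1 of 916 bp in exon 5 of 12. BCL7A, of the ATPase module, held 1302 bp in its 3' UTR, exon 6 of 6, and 4053 bp across its start site. BCL7B held 1584 bp in exon 5 of 5. BCL11B, a zinc finger transcription factor found with BAF in lymphoid and neural cells, held 1899 bp in exon 4 of 4, and its paralog BCL11A had only intron-centred regions, of 7752 and 7213 bp.

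Intron-centred regions were also found in ACTL6A, an actin-related subunit, with 5903 bp in intron 1 of 13, and in SS18, the subunit fused to SSX proteins in synovial sarcoma, with 7052 and 2325 bp in introns 10 and 9 of 10. PHF10, a PHD finger subunit of PBAF, had a region of 1151 bp outside its body, centred 974 bp before its start site and overlapping the neighbouring gene DYNLT2. The region nearest to DPF1 lay in the 3' UTR of another gene, SIPA1L3. No region was found for SMARCB1, SMARCC2, SMARCD1, SMARCD2, SMARCD3, ACTL6B, ACTB, DPF2, DPF3, SS18L1 or BCL7C. SMARCC1 and SMARCC2, paralogous scaffolds, thus differed in holding 2 regions and none. SMARCC1 is the longer gene, with 196625 bp against 27125 bp for SMARCC2.

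**Figure D3:**
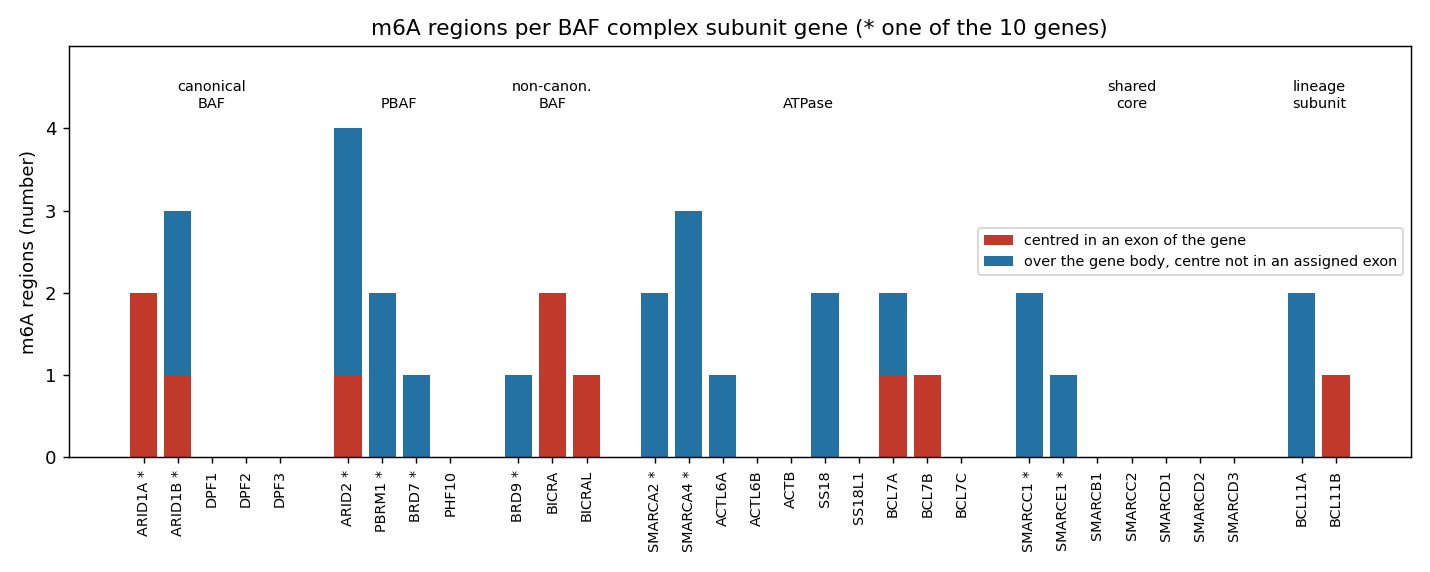
Bars give the number of m6A regions over the body of each of 31 BAF complex genes, grouped by module, with asterisks on the 10 genes. Red is the part centred in an exon of the gene and blue the remainder. ARID1A and BICRA each have 2 red regions, and ARID2 has the most regions with 4.

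Remodelers of other families were compared by the same measures. Over all 31 BAF subunits, picked and not, 8 held an exonic region (25.8%, interval 11.9 to 44.6%) and 18 one over the gene body (58.1%, 39.1 to 75.5%). As 10 of the 31 were picked for holding regions, the 31 are no random draw and these intervals cannot be read as a test. The 9 CHD helicase genes held an exonic region in 3 cases (33.3%, 7.49 to 70.1%), led by CHD6 and CHD9 with 2 each and CHD7 with 1. The 18 remodeler genes of the ISWI and INO80 families and related proteins held one in 8 cases (44.4%, 21.5 to 69.2%), led by EP400 and CECR2 with 2 each and BAZ2B with 1. Regions over the gene body were found in 6 of the CHD genes (66.7%) and 15 of the ISWI and INO80 group (83.3%). The difference between the BAF genes and both other families was not tested. The median gene length was 51044 bp for the BAF genes, 78535 bp for the CHD genes and 86407.5 bp for the ISWI and INO80 group, and length was not held fixed. Intron-centred regions had a median width of 4780 bp in the 10 BAF and PBAF genes (n = 15), 7052 bp in the further BAF subunits (n = 5), 3439.5 bp in the CHD genes (n = 12) and 2417 bp in the ISWI and INO80 group (n = 37).

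**Figure D4:**
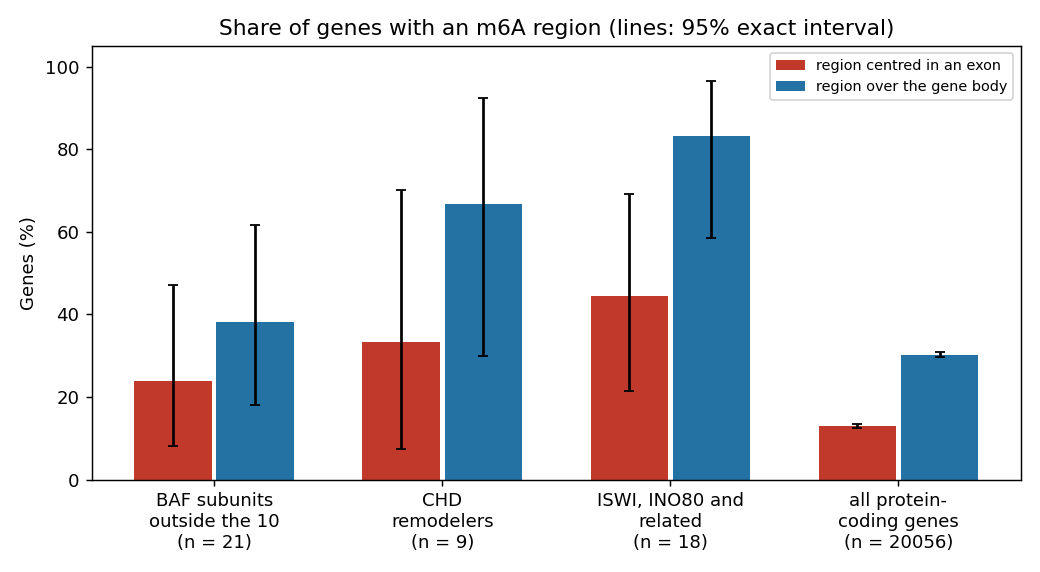
Bars give the percent of genes with a region centred in an exon (red) or over the gene body (blue), and lines the 95% exact binomial interval, for the 21 subunits outside the 10 genes, the CHD genes, the ISWI, INO80 and related genes, and all 20056 protein-coding genes. The subunits reach 23.8 and 38.1%, with intervals that include the 12.9 and 30.2% of all genes. They are the subunits left after the 10 genes with regions were picked, which lowers their shares.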

How the data were processed

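m6A-seq of wild-type H1 cells gave 2 antibody and 2 input libraries, grouped by the sample titles; whether replicates were separate cultures is not stated. MACS2 2.2.7.1, HOMER, HISAT2 2.2.1, bedtools 2.30.0, SAMtools 1.6 and Trim Galore 0.6.7 are listed, with hg38 as the build, per the submitters' processing notes, which give names alone; settings, the sets intersected and the handling of multiply aligned reads: not given in the sources used here. For each of 9900 regions the authors deposited a start, an end and HOMER's feature, nearest gene and distance to a start site, with no count or signal. Depth was therefore unknown.

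Host transcripts were matched to RefSeq genes of GRCh38.p14; 62 of 8585 did not match, and an exonic one of these was given to a gene only where 1 protein-coding gene body held its centre. Strand came from RefSeq promoter windows or, for genes without one such as ARID2 and SMARCC1, from the deposited distance or the exon or intron order of the gene's own regions. Shares have exact binomial intervals at 95% (SciPy 1.17.1). No gene was tested and no p-value computed, since the 10 genes and all lists were chosen with earlier results of these data known. Named were the 10 genes with all their regions, every further subunit, up to 3 genes of each comparison family (most exonic regions, then most bases) and the 3 genes most like the one with most exonic regions; LOC124900417, LOC128966726, DYNLT2 and SIPA1L3 were named because a region met them. The assignment code was run on simulated regions that already carried the right gene name and feature. Among 59778 genes, 200 of 200 simulated exonic genes and 400 of 400 genes over the body were recovered. Of 200 intronic ones, 0 were called exonic. With the labels given, this checks that the code runs as meant and not how well transcripts are matched or overlapping genes told apart. Sequences within regions other than promoters were not analysed here.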

Additional observations from a re-analysis of the deposited data

How the results depend on the processing

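Of 48 values under 8 alternative settings, 41 stayed within 1.5 times the value reported. With regions up to 2 kb wide only, 6 members had a region instead of 10, the members' regions numbered 10 instead of 23 with a median width of 1285.5 bp instead of 2172 bp, and 5 other subunits had a region over the gene body instead of 8. With regions assigned through the nearest start site alone, the members' regions numbered 13, the exonic ones 2 instead of 4, and 3 other subunits instead of 5 had an exonic region. The changes with regions up to 2 kb follow from leaving out wider regions. Those with the nearest start site alone follow from giving regions to the gene of that site, which was another gene for 10 of the 23. Members with an exonic region numbered 2 to 4 instead of 3 across all 8 settings; the count of 4 came with transcript ends and promoters included, and with unmatched exonic regions given to every gene body at the centre, an alternative chosen after seeing the data that adds BRD9. Merging regions less than 1000 bp apart, a minimum width of 1 kb and a requirement that most of the region lie inside the gene moved no value beyond 1.5 times. No paired analysis was possible because the files give no value per library, and for the same reason no replicate could be left out and no stricter caller score applied. Signal over background is unknown, so weak regions cannot be told from strong ones.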

Other observations

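Neighbouring regions less than 1000 bp apart were uncommon in the set, with 197 of 9876 neighbouring pairs (1.99%), a smallest gap of 709 bp and a median gap of 84470.5 bp. The wide intron-centred regions of SMARCA2 and the pair centred in intron 1 of ARID1B, with gaps of 756 and 956 bp, were among them. Whether such pairs are single stretches split by the peak caller was not tested. SMARCE1 and PHF10, a subunit of PBAF, each had a region outside the gene body, centred 987 and 974 bp before the start site. The BRD9 region and the first ARID1A region each met a second protein-coding gene model, and the files give no strand to tell the overlapping genes apart.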
